A study of Mus musculus with 4 samples.

Results

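The Sox genes encode transcription factors that bind DNA through a shared HMG box, and 10 of them are described here across 4 libraries of mouse colon tumour tissue. They were taken by gene symbol from the 26214 symbols of the deposited count tables: Sox2, Sox4, Sox6, Sox7, Sox9, Sox11, Sox13, Sox17, Sox18 and Sox21. All 10 were found and all 10 passed the filter on low counts. Sox2 was chosen because it had been called higher in these libraries, and the other 9 were listed with those results known. Their values between the groups are therefore a description and not an independent test.

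The series asks what GSK3B in the gut epithelium does to gene expression in colon tumours. GSK3B is a kinase that phosphorylates beta-catenin, the effector of Wnt signalling, and so leads to its breakdown. In both groups the tumours were induced with azoxymethane (AOM), a carcinogen, and dextran sulfate sodium (DSS), which injures the colonic lining. One group of 2 libraries is labelled Gsk3b (IEC+/+) and the other group of 2 Gsk3b (IEC-/-), and both are labelled as colon cancer tissues. The labels used here do not name the promoter that drove deletion, the exons removed, the strain, the age or the time of sampling. Nor do they tie each library to a mouse of its own, and the p-values then reflect only how these samples spread, which may be technical.

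Total counts lay between 25472503 and 27218515 per library. Gsk3b itself had 157 to 170 CPM (cpm of edgeR, the count relative to the TMM-scaled library size) in IEC+/+ and 149 to 152 CPM in IEC-/-. A count over the whole gene does not check a deletion of some exons in some cells, so the groups are named by their labels. The tissue contained epithelium in every library, with 1398 and 1444 CPM of Epcam in the IEC+/+ libraries and 1270 and 1045 in the IEC-/- libraries. Other epithelial genes differed more. A list of 14 summed to 13778 and 11908 CPM in the IEC+/+ libraries and 7867 and 7392 in the IEC-/- libraries. IEC-/- replicate 2 stood apart in 1 respect that is taken up again beside Sox2. It held transcripts of stratified squamous epithelium, with Krt5 at 795 CPM against 0 CPM in IEC-/- replicate 1 and 0.193 and 10.4 CPM in the IEC+/+ libraries.

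Sox factors bend DNA on binding and usually act with a partner factor, so the same Sox protein can serve different genes in different cells. They fall into groups by sequence. Among the genes described, Sox2 and Sox21 belong to group B, Sox4 and Sox11 to group C, Sox6 and Sox13 to group D, Sox9 to group E, and Sox7, Sox17 and Sox18 to group F. In the intestine Sox9 is known from the crypt base and Paneth cells, group F from blood and lymph vessels, and Sox2 from the foregut, which forms the oesophagus and stomach, rather than from the colon. The TCF/LEF factors that act with beta-catenin carry an HMG box of a related kind.

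What the 10 genes share in sequence is shown by the 60 coding bases most alike between Sox2 and the others, which lie in the HMG box. They are read 5′ to 3′ on the coding strand from the GENCODE M21 transcript with the longest coding sequence. Capitals mark the 25 bases that are identical in all 10 genes, and the lines follow the groups B to F.

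Sox2: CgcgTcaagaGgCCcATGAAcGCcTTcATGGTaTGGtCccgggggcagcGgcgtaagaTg

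Sox21: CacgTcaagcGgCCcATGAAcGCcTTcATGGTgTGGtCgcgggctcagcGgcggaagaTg

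Sox4: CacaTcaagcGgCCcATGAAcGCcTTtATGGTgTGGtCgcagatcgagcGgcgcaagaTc

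Sox11: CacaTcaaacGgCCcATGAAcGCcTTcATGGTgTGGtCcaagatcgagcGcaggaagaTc

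Sox6: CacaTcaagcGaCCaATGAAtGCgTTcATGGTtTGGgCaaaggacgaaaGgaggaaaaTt

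Sox13: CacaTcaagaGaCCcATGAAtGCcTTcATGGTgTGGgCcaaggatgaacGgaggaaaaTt

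Sox9: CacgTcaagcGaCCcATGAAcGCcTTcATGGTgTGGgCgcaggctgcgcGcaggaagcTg

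Sox7: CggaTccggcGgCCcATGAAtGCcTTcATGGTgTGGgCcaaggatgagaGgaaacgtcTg

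Sox17: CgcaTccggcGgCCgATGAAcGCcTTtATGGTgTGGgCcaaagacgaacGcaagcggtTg

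Sox18: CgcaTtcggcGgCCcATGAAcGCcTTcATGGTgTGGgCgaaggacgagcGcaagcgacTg

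The stretch of Sox2 lies at chr3:34650539-34650598 (GRCm38, plus strand), within its only exon, and in none of the 10 genes was it split by an intron. Sox21 matched Sox2 at 53 of the 60 bases, the most of the 9, and Sox17 at 38, the fewest. Over the 45 pairs of genes, identity in this stretch was 80.0% to 88.3% for the 6 pairs of the same group and 63.3% to 86.7% for the 39 pairs of different groups. The stretch was picked for its likeness to Sox2, so these identities are a description. The 2 ranges overlap, since Sox9 and Sox21 of different groups shared 86.7%. Along whole transcripts the longest run of identical bases was 48, between Sox4 and Sox11, and 38 between Sox2 and Sox21. The reads were 150 bases long per the labels' protocols, so no read that matches one of these transcripts over its full length matches another exactly.

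The genes lie apart in the genome (GENCODE M21 on GRCm38, the assembly also called mm10). Sox2, Sox4, Sox11 and Sox21 are single-exon genes, and Sox6 is the longest of the 10, with 17 exons from 115470872 to 116038796 on chromosome 7. Sox2 spans 34650405 to 34652461 on chromosome 3, inside Sox2ot, a noncoding gene on the same strand from 34104270 to 34682619. Sox21 spans 118233232 to 118237030 on chromosome 14 and overlaps Gm4675 on the opposite strand. Also on opposite strands, Sox4 overlaps Gm26735, Sox17 overlaps Gm37587, and Sox6 overlaps Gm45025 and Sox6os. The sources used here do not state that counting used strand or how it treated overlapping genes. How far the reads of these genes were kept apart was not tested.

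Per kilobase of transcript, Sox4 was the most abundant member in all 4 libraries. In IEC+/+ it had 112 and 141 RPKM (CPM per kilobase of the longest coding transcript), above Sox9 with 64.1 and 55.2 RPKM and Sox21 with 44.4 and 49.3 RPKM. Sox17 followed with 28.8 and 44.8 RPKM, overlapping Sox21. Sox13 had 17.5 and 17.6 RPKM and Sox18 13.5 and 14.6 RPKM. These 6 genes lay above the other 4 in every library.

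The remaining 4 had under 3 RPKM each in IEC+/+: Sox6 had 2.89 and 2.36 RPKM, Sox2 1.73 and 1.84, Sox7 1.74 and 1.63, and Sox11 1.78 and 1.41. Sox2, Sox7 and Sox11 overlapped there. In IEC-/- the order below Sox4 differed in places. Sox17, with 39.7 and 79.0 RPKM, Sox21, with 69.3 and 43.2, and Sox9, with 63.6 and 45.1, overlapped one another. Sox2, with 6.96 and 6.65 RPKM, lay within the range of Sox6, with 7.07 and 4.75, and both lay above Sox7 at 1.58 and 1.54 RPKM.

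**Figure D1:**
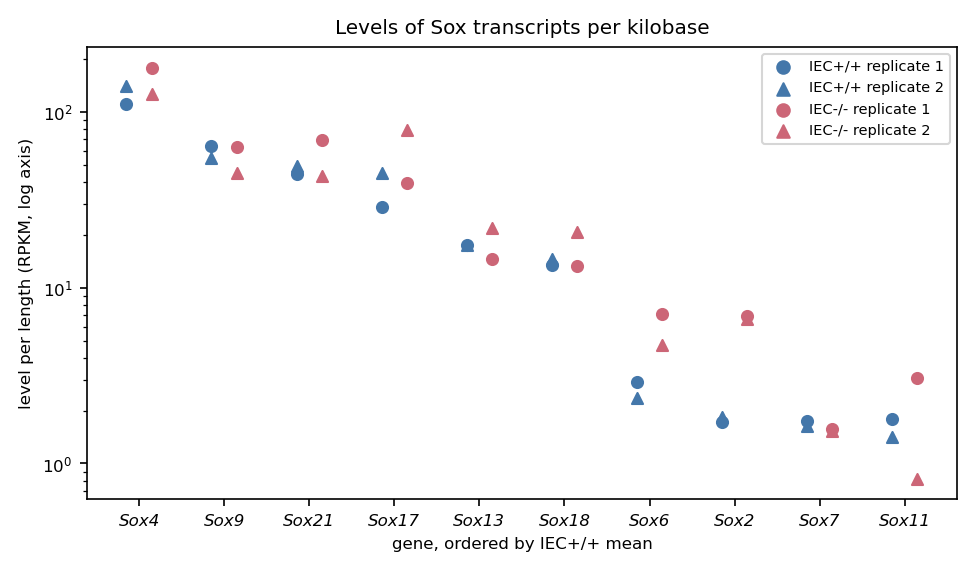
Level per kilobase of transcript (RPKM, log axis) of the 10 Sox genes, ordered by the IEC+/+ mean; blue marks are IEC+/+ and red marks IEC-/- libraries, with circles for replicate 1 and triangles for replicate 2. Sox4 is highest in each library, and the IEC-/- marks of Sox2 and Sox6 stand above their IEC+/+ marks.

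Between the groups, the fit across all 16637 genes tested called 1 of the 10 members higher in IEC-/-, Sox2, and 0 lower (edgeR quasi-likelihood test, Benjamini-Hochberg adjusted p under 0.05). At an unadjusted p under 0.05 it gave 2 higher, Sox2 and Sox6, and 0 lower. Over all genes tested 0.884% were called, 0.120% higher and 0.763% lower, and 7.50% were higher and 9.12% lower at the unadjusted threshold. Sox2 was chosen on this comparison, so nothing is read from the count. The fitted log2 fold change was above 0 for 8 members and below 0 for Sox7 and Sox9, with a median of 0.28, against 0.01 over all genes tested, of which 51.5% were above 0. In 7 members the CPM of the groups overlapped. Both IEC-/- libraries lay above both IEC+/+ libraries for 2 members, Sox2 and Sox6, and below for 1, Sox7. Among all genes tested 24.0% did so above and 24.1% below.

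**Figure D2:**
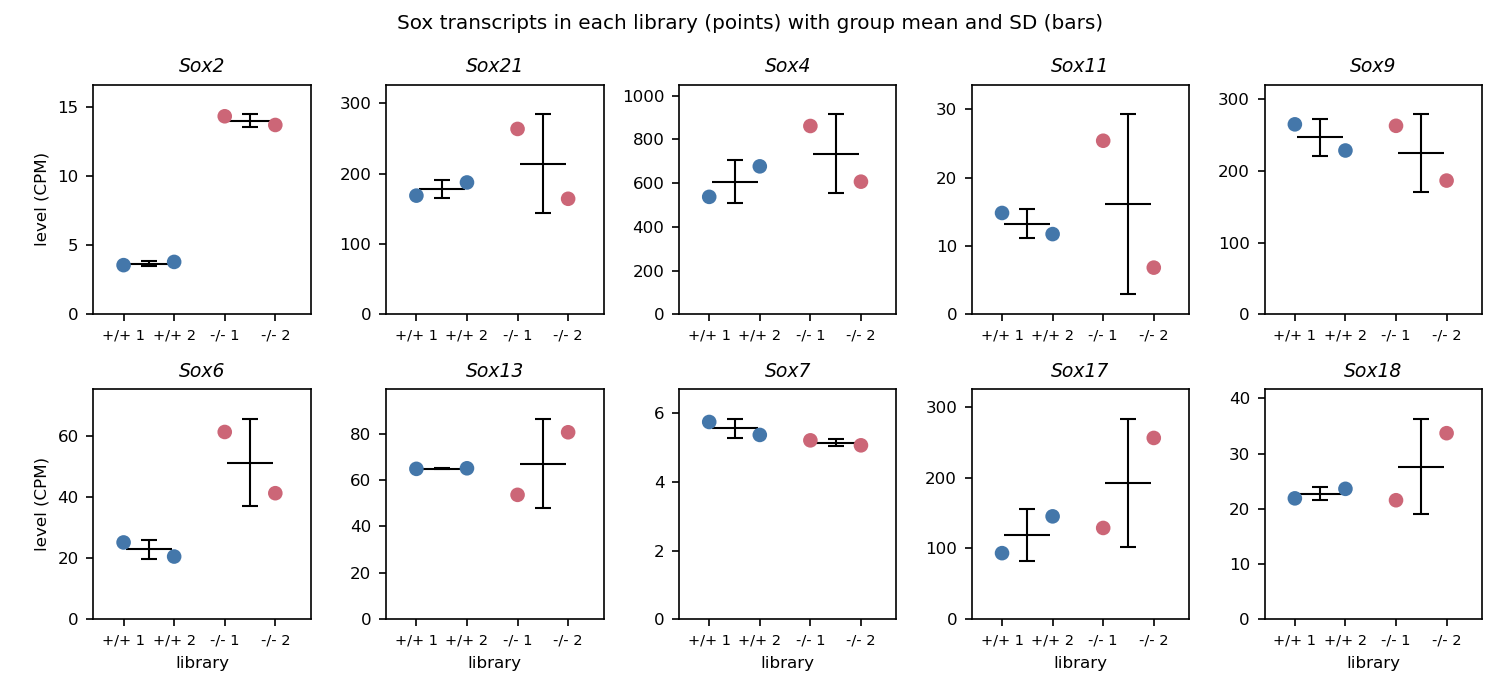
Level in CPM of each of the 10 Sox genes by library, each panel with its own linear axis from 0; points are libraries (blue IEC+/+, red IEC-/-) and bars are the mean and SD of the 2 libraries of a group. The groups are clear of each other for Sox2, Sox6 and, by a small margin, Sox7, and overlap for the other 7.

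Sox2, a group B factor of pluripotent cells, neural progenitors and the foregut, was scarce in IEC+/+ and several times higher in IEC-/-. It was counted 92 and 100 times in the IEC+/+ libraries and 398 and 359 times in the IEC-/- libraries. In CPM these are 3.55 and 3.78 in IEC+/+ against 14.3 and 13.7 in IEC-/-. The libraries of each group lay close together, with ratios of 1.07 between the IEC+/+ and 1.05 between the IEC-/- libraries, and the groups were far apart. The group means, 3.67 ± 0.165 and 14.0 ± 0.445 CPM (SD, n = 2 each), gave a fitted ratio of 3.81 with a 95% interval of 2.50 to 5.81 (log2 fold change 1.93, SE 0.24, edgeR adjusted p = 0.0461). That p ranked 113th among the genes tested, and the largest adjusted p of a called gene was 0.0494. In bulk tissue, more cells of a type and more RNA per cell cannot be told apart.

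The size of the Sox2 difference hardly depended on any 1 library, while its call did. With 1 library left out at a time the log2 fold change was 1.88 to 1.98. Without IEC+/+ replicate 1 or 2 the edgeR adjusted p was 0.426 or 0.240, and 0 genes of the whole table were called (1384 or 1754 at an unadjusted p under 0.05). Without IEC-/- replicate 1 or 2 Sox2 was called, with an edgeR adjusted p of 0.0339 or 0.0268, where 4.24% or 3.32% of all genes tested were called. By limma-voom, which called 0.469% of them, Sox2 was not called (adjusted p = 0.0555). DESeq2 and the exact test of edgeR called it (adjusted p = 1.86e-08 and 1.34e-05), and they called 7.95% and 5.30% of all genes tested.

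Sox2ot, the noncoding gene within which Sox2 lies, was counted 25 and 10 times in IEC+/+ and 54 and 71 times in IEC-/-. Its CPM were 0.965 and 0.378 against 1.94 and 2.71, and the groups did not overlap. The fitted ratio was 3.45 with a 95% interval of 1.21 to 9.81, and the call was not made (log2 fold change 1.78, SE 0.60, edgeR adjusted p = 0.245). Since both genes lie on the same strand, how far its reads are separate from those of Sox2 was not tested.

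Tissues known for Sox2 were then read from gene lists. Of 20 stomach and oesophagus genes, 13 were tested and 0 called over all genes tested (by unadjusted edgeR p under 0.05, 2 higher and 1 lower), with a median log2 fold change of 1.26. The summed level of the list was 205 to 243 CPM in IEC+/+, 153 CPM in IEC-/- replicate 1 and 2178 CPM in IEC-/- replicate 2. The high sum came from genes of stratified squamous epithelium. Trp63, a regulator of squamous basal cells, was at 0 and 0.870 CPM in IEC+/+, 0.0719 CPM in IEC-/- replicate 1 and 34.0 CPM in IEC-/- replicate 2. The keratin gene Krt14 had 77.6 and 49.0 CPM in IEC+/+, 13.0 CPM in IEC-/- replicate 1 and 863 CPM in IEC-/- replicate 2. Krt13 had 31.1, 22.5, 4.64 and 279 CPM in the same order. These genes were named after their values were seen.

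Sox2 was at 14.3 CPM in IEC-/- replicate 1, where Krt5 was at 0 CPM and Trp63 at 0.0719 CPM. It was at 13.7 CPM in IEC-/- replicate 2, where Krt5 and Trp63 were abundant. The part of squamous transcripts in the Sox2 difference was not tested. Sox15, a further family gene, had 0.656 and 0.265 CPM in IEC+/+, 0.288 CPM in IEC-/- replicate 1 and 2.10 CPM in IEC-/- replicate 2. It was highest in IEC-/- replicate 2, as were Sox5, Sox8, Sox12 and Sox2ot. Some defining genes of the glandular stomach were nearly or fully at 0. The gastric mucin gene Muc5ac was counted 0 times in both IEC+/+ libraries and 7 and 4 times in IEC-/-. Gkn2 was at 0 in all 4 libraries. The claudin gene Cldn18 of the list had 0.849 and 0.378 CPM in the IEC+/+ libraries and 3.96 and 1.72 in the IEC-/- libraries. Its groups did not overlap, and it was not called (log2 fold change 2.20, SE 0.67, edgeR adjusted p = 0.206). Gkn3, Pgc, Anxa10 and Tff1 of the list overlapped between the groups. The 2 genes of the list with the smallest p were the mucin gene Muc6, with 42.7 and 26.9 CPM in the IEC+/+ libraries and 74.7 and 91.7 in the IEC-/- libraries (log2 fold change 1.26, edgeR adjusted p = 0.0967), and the protease gene Ctse, with 74.8 and 75.9 against 45.9 and 53.5 CPM (-0.60, edgeR adjusted p = 0.111).

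**Figure D3:**
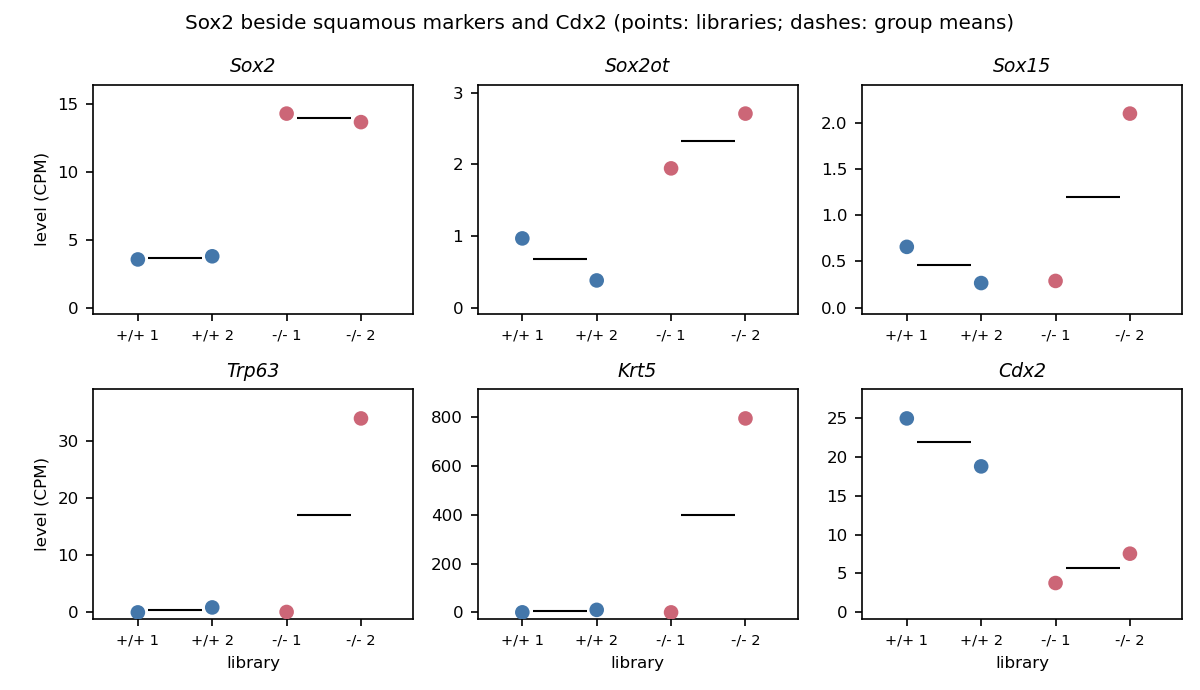
Level in CPM (linear axis) of Sox2, its overlapping gene Sox2ot, the family gene Sox15, the squamous genes Trp63 and Krt5, and Cdx2 in each library; points are libraries (blue IEC+/+, red IEC-/-) and dashes are group means. Sox2 is at 14.3 and 13.7 CPM in the IEC-/- libraries, while Trp63 and Krt5 are high in IEC-/- replicate 2 alone and Cdx2 is below IEC+/+ in both.

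Of 12 transcription factors of hindgut identity, 0 were called over all genes tested (by unadjusted edgeR p under 0.05, 1 higher and 6 lower), with a median log2 fold change of -0.39. Their summed level was 1302 to 1310 CPM in the IEC+/+ libraries and 1037 and 782 in the IEC-/- libraries. Cdx2, which is known to oppose foregut identity in the gut, had 24.9 and 18.8 CPM in the IEC+/+ libraries and 3.78 and 7.55 in the IEC-/- libraries, so the groups did not overlap (log2 fold change -1.95, SE 0.39, edgeR adjusted p = 0.0986). Isx, an intestinal homeobox gene, had 14.0 and 15.9 against 4.17 and 2.10 CPM (-2.25, SE 0.39, edgeR adjusted p = 0.0731).

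Among the Sox2 partners and pluripotency genes members lay on both sides. Of 15 genes 8 were tested and 0 called (by unadjusted edgeR p under 0.05, 3 higher and 2 lower), with a median log2 fold change of 0.29. Pou5f1 and Nanog, the partners of Sox2 in pluripotent cells, had 0 counts in all 4 libraries, which allows at most 3 counts or 0.108 to 0.116 CPM in a library. Klf4, also a gene of differentiated colonocytes, had 217 and 134 CPM in the IEC+/+ libraries and 77.8 and 74.8 in the IEC-/- libraries (log2 fold change -1.20, edgeR adjusted p = 0.0991). Esrrb was at or below 1.30 CPM in every library (2.80, edgeR adjusted p = 0.164).

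Enteric glia and their relatives are a further known source of Sox2. Sox10, which defines them together with S100b, was counted 0 and 2 times in IEC+/+ and 1 and 0 times in IEC-/-, and S100b 3, 0, 2 and 9 times. Of 12 glial and Schwann cell genes 4 were tested and 0 called (0 at an unadjusted p under 0.05 by edgeR), with a median log2 fold change of 1.04 and summed levels of 181 and 190 CPM in the IEC+/+ libraries and 164 and 156 in the IEC-/- libraries. The sum was mostly Erbb3, which epithelium also makes. The part of glial transcripts in the Sox2 difference was not tested. Of 14 neuron genes 9 were tested and 0 called (by unadjusted edgeR p under 0.05, 1 higher and 2 lower), with summed levels of 49.7 and 50.6 CPM in the IEC+/+ libraries and 37.4 and 27.1 in the IEC-/- libraries. Their median log2 fold change was 0.26.

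The genes whose profile over the 4 libraries lay nearest to that of Sox2 were sought among 15808 genes by the root mean square difference of centred log2 CPM. They were Aox4 (difference 0.0965), Abcd2 (0.0975), Ceacam19 (0.118), A930003A15Rik (0.134) and Necab1 (0.140). Aox4, an aldehyde oxidase gene, had 7.33 and 7.11 CPM in the IEC+/+ libraries and 24.4 and 26.6 in the IEC-/- libraries. With 4 libraries such a likeness only says that these genes have close replicates and a difference of similar size.

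Sox21, the group B factor that is known to counter Sox2 at shared targets, was far more abundant than Sox2 and overlapped between the groups. It had 169 and 187 CPM in the IEC+/+ libraries and 263 and 164 in the IEC-/- libraries, so that IEC-/- replicate 1 was the highest and IEC-/- replicate 2 the lowest library. The log2 fold change was 0.26 (SE 0.24, 95% interval -0.33 to 0.86, edgeR adjusted p = 0.646). Gm4675 on the opposite strand was counted 727 and 796 times in IEC+/+ and 1409 and 726 times in IEC-/-, also highest in IEC-/- replicate 1. How far its reads are separate from those of Sox21 was not tested.

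Per kilobase, Sox21 stood at 26.3 times Sox2 in IEC+/+ and at 8.27 times Sox2 in IEC-/-, as ratios of the group means in RPKM. The interval of the Sox21 ratio between groups, 0.797 to 1.81, lay below that of Sox2, 2.50 to 5.81. The difference between the 2 genes was not itself tested.

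Among the group C genes, activators that act in progenitor cells, Sox4 is known in the intestine for its role in making tuft and enteroendocrine cells. Sox4 had 537 and 677 CPM in the IEC+/+ libraries and 862 and 607 in the IEC-/- libraries. Only IEC-/- replicate 1 lay outside the range of IEC+/+, and the groups overlapped (log2 fold change 0.27, SE 0.21, edgeR adjusted p = 0.588). The 95% interval of the ratio was 0.837 to 1.75.

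Sox11, otherwise a gene of the embryo and of neurons, had the widest spread of the 10. Its CPM were 14.8 and 11.7 in IEC+/+ and 25.4 and 6.82 in IEC-/-, so the IEC-/- libraries were the highest and the lowest and differed 3.72-fold from each other. The log2 fold change was 0.28 with an SE of 0.59 (edgeR adjusted p = 0.869). It depended on 1 library: without IEC-/- replicate 1 it was -0.97 (edgeR adjusted p = 0.177), and without IEC-/- replicate 2 it was 0.93.

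Sox12, the third gene of group C, had 8.34 and 11.8 CPM in the IEC+/+ libraries and 12.5 and 18.9 in the IEC-/- libraries, with groups that did not overlap (log2 fold change 0.64, SE 0.31, edgeR adjusted p = 0.381). Among 11 tuft cell genes tested 0 were called (by unadjusted edgeR p under 0.05, 2 higher and 0 lower), with a median log2 fold change of 0.32 and sums of 145 and 160 CPM in the IEC+/+ libraries and 193 and 208 in the IEC-/- libraries. Among 11 enteroendocrine genes 0 were called (1 higher and 3 lower at the unadjusted threshold), with a median of -0.58. Their sums were 98.0 and 75.9 CPM in the IEC+/+ libraries and 133 and 63.5 in the IEC-/- libraries. Of the sum of 133 CPM in IEC-/- replicate 1, 87.2 CPM came from Isl1. Of the 11 genes 6 were highest in IEC+/+ replicate 1 and 3 in IEC-/- replicate 1, where Sox4 and Sox11 were highest. The hormone granule gene Chgb had 49.4 and 30.8 against 12.1 and 16.1 CPM (log2 fold change -1.51, edgeR adjusted p = 0.0888), and Isl1 had 15.9 and 20.2 against 87.2 and 28.9 CPM (1.69, edgeR adjusted p = 0.205).

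Sox9, the group E factor of crypt base, transit-amplifying and Paneth cells and a known target of Wnt signalling, overlapped between the groups. It had 265 and 228 CPM in the IEC+/+ libraries and 263 and 186 in the IEC-/- libraries. IEC-/- replicate 1 lay between the IEC+/+ libraries, close to the higher one, and IEC-/- replicate 2 was the lowest of the 4. The log2 fold change was -0.13 (SE 0.20, 95% interval -0.62 to 0.35, edgeR adjusted p = 0.800). An interval of 0.649 to 1.28 for the ratio leaves room for moderate change in either direction.

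Other Wnt targets were read beside Sox9. Of 16 genes 0 were called (by unadjusted edgeR p under 0.05, 8 higher and 0 lower), with a median log2 fold change of 0.41 and summed levels of 3035 and 3052 CPM in the IEC+/+ libraries and 4214 and 4219 in the IEC-/- libraries. Axin2, a feedback inhibitor, and Notum, a secreted antagonist, had the smallest p, with log2 fold changes of 0.63 and 0.67 (edgeR adjusted p = 0.0851 and 0.0903). Of 10 Paneth and deep crypt secretory genes 0 were called (1 higher and 0 lower at the unadjusted threshold), with a median of 0.28. Their sums were 2535 and 4200 CPM in the IEC+/+ libraries and 3953 and 4288 in the IEC-/- libraries, lowest in IEC+/+ replicate 1. The genes nearest to Sox9 in profile were Gm10575, Kif15 and Elk4, with root mean square differences of 0.0137, 0.0168 and 0.0188.

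Sox8, the other group E gene counted at more than a few reads, had 0.579 and 0.870 CPM in the IEC+/+ libraries and 1.29 and 1.60 in the IEC-/- libraries. The groups did not overlap and the gene was not called (log2 fold change 0.99, SE 0.51, edgeR adjusted p = 0.416). Sox9 is known to drive cartilage genes together with Sox5 and Sox6. Of 12 such genes 8 were tested and 0 called (by unadjusted edgeR p under 0.05, 2 higher and 1 lower), with a median log2 fold change of 0.57, and Col2a1, the main cartilage collagen gene, was at or below 1.03 CPM in every library. The list summed to 41.4 and 46.4 CPM in the IEC+/+ libraries and 77.8 and 59.8 in the IEC-/- libraries.

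Of the group D genes, which lack an activation domain of their own and pair through a coiled coil, Sox6 had the second largest difference of the 10 members. It was counted 650 and 541 times in IEC+/+ and 1703 and 1081 times in IEC-/-. The CPM were 25.1 and 20.5 in IEC+/+ and 61.3 and 41.2 in IEC-/-, and the groups did not overlap. The group means, 22.8 ± 3.26 and 51.2 ± 14.2 CPM (SD, n = 2 each), gave a fitted ratio of 2.25 with a 95% interval of 1.51 to 3.36. The gene was not called over all genes tested (log2 fold change 1.17, SE 0.23, edgeR adjusted p = 0.0986). DESeq2 and the exact test of edgeR called it (adjusted p = 0.000532 and 0.00213), as did the quasi-likelihood fit without IEC-/- replicate 2. These were the only 3 of 11 alternatives that called Sox6, and limma-voom did not (adjusted p = 0.125). With 1 library left out at a time its log2 fold change was 0.85 to 1.42. DESeq2 called 7.95% and the exact test 5.30% of all genes tested. Sox6os, on the opposite strand within Sox6, was counted 2 to 7 times per library.

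Sox5, the close relative of Sox6, had 3.90 and 2.91 CPM in the IEC+/+ libraries and 4.06 and 5.26 in the IEC-/- libraries (log2 fold change 0.45, SE 0.35, edgeR adjusted p = 0.589). Sox6 is known from mesenchymal cells under the epithelium as well as from muscle and red cell precursors. Of 14 fibroblast genes 0 were called (by unadjusted edgeR p under 0.05, 1 higher and 1 lower), with a median log2 fold change of -0.28 and sums of 3895 and 2472 CPM in the IEC+/+ libraries and 2678 and 2319 in the IEC-/- libraries. Of 10 smooth muscle genes 0 were called (0 higher and 2 lower at the unadjusted threshold), with a median of -0.43 and sums of 650 and 296 CPM in the IEC+/+ libraries and 378 and 393 in the IEC-/- libraries. In IEC+/+ replicate 1, 12 of the 14 fibroblast and all 10 smooth muscle genes were highest. The other 2 fibroblast genes, Bmp7 and Foxl1, were highest in IEC-/- replicate 1, as was Sox6. The log2 fold change was 0.35 for Bmp7 (SE 0.11, edgeR adjusted p = 0.226) and 0.48 for Foxl1 (SE 0.28, edgeR adjusted p = 0.471). The part of these cells in the Sox6 difference was not tested.

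Sox13, a group D gene known from T cells that make interleukin 17, had 64.8 and 65.0 CPM in the IEC+/+ libraries and 53.6 and 80.6 in the IEC-/- libraries. The IEC-/- libraries lay on either side of the IEC+/+ libraries, which were almost equal (log2 fold change 0.05, SE 0.21, 95% interval -0.47 to 0.57, edgeR adjusted p = 0.945). Of the 9 genes found of the list of gamma-delta T and type 17 cells, 8 were tested and 0 called (by unadjusted edgeR p under 0.05, 1 higher and 0 lower), with a median of 0.41. Their sums were 76.1 and 42.8 CPM in the IEC+/+ libraries and 67.3 and 58.4 in the IEC-/- libraries. Il17a had 1.51 to 1.89 CPM in the IEC+/+ libraries and 1.40 and 4.16 in the IEC-/- libraries.

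The group F genes are known above all from endothelium, where Sox7, Sox17 and Sox18 act in part in place of one another. Sox17 also forms the endoderm of the embryo and is known to restrain beta-catenin. It had 93.2 and 145 CPM in the IEC+/+ libraries and 129 and 256 in the IEC-/- libraries. IEC-/- replicate 2 was the highest library, and IEC-/- replicate 1 fell between the IEC+/+ libraries (log2 fold change 0.69, SE 0.37, 95% interval -0.24 to 1.62, edgeR adjusted p = 0.433). Without IEC-/- replicate 2 the log2 fold change was 0.11, and without IEC-/- replicate 1 it was 1.09. Without IEC+/+ replicate 1 or 2 it was 0.40 or 1.04, so its size depended on each of the 4 libraries.

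Sox18, a gene of vessels that is needed to form lymphatics, had 21.9 and 23.6 CPM in the IEC+/+ libraries and 21.5 and 33.7 in the IEC-/- libraries. As with Sox17, IEC-/- replicate 2 was the highest library, and IEC-/- replicate 1 was the lowest (log2 fold change 0.28, SE 0.25, edgeR adjusted p = 0.639). Sox7 had 5.75 and 5.37 CPM in the IEC+/+ libraries and 5.22 and 5.07 in the IEC-/- libraries. Those groups did not overlap, but the difference was small (log2 fold change -0.11, SE 0.28, 95% interval -0.81 to 0.58, edgeR adjusted p = 0.892).

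Endothelial genes were read beside group F. Of 18 blood endothelial genes 0 were called (by unadjusted edgeR p under 0.05, 2 higher and 0 lower), with a median log2 fold change of 0.18 and sums of 484 and 455 CPM in the IEC+/+ libraries and 570 and 517 in the IEC-/- libraries. Of these 18, 9 were highest in IEC-/- replicate 1 and 7 in IEC-/- replicate 2, where Sox17 and Sox18 were highest. Vwf, which encodes von Willebrand factor, had the smallest p of the list, with 59.4 and 49.0 against 88.7 and 70.4 CPM (log2 fold change 0.55, edgeR adjusted p = 0.210). Of 10 lymphatic endothelial genes 0 were called (4 higher and 0 lower at the unadjusted threshold), with a median of 0.58 and sums of 709 and 651 CPM in the IEC+/+ libraries and 1161 and 840 in the IEC-/- libraries. Most of that sum was Prox1, which tumour epithelium can also make, at 549 and 492 against 960 and 608 CPM. Mmrn1, a lymphatic gene, had 11.4 and 10.1 against 24.5 and 22.9 CPM (log2 fold change 1.14, edgeR adjusted p = 0.0722). The part of endothelial transcripts in the levels of Sox17 and Sox18 was not tested. The genes nearest to Sox17 in profile were Cited4, 1810044D09Rik and Pilrb1, with root mean square differences of 0.0498, 0.0584 and 0.0604.

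The rest of the family ranged from 0 counts to the level of the scarcer members: Sox12 had a mean of 2.26 RPKM in IEC+/+, against 1.78 for Sox2, 1.69 for Sox7 and 1.60 for Sox11. Of the family's 20 Sox and Sry genes 14 were tested. Sox3 and Sry had 0 counts in all 4 libraries. Sox1, Sox10 and Sox30 had at most 4 counts in a library, and Sox14 4 to 18 counts. Of the 4 tested genes that are not among the 10, Sox5, Sox8, Sox12 and Sox15, 0 were called (edgeR; 0 at an unadjusted p under 0.05) and all had fitted log2 fold changes above 0. For Sox15 this rested on IEC-/- replicate 2 (log2 fold change 1.36, SE 1.04).

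**Figure D4:**
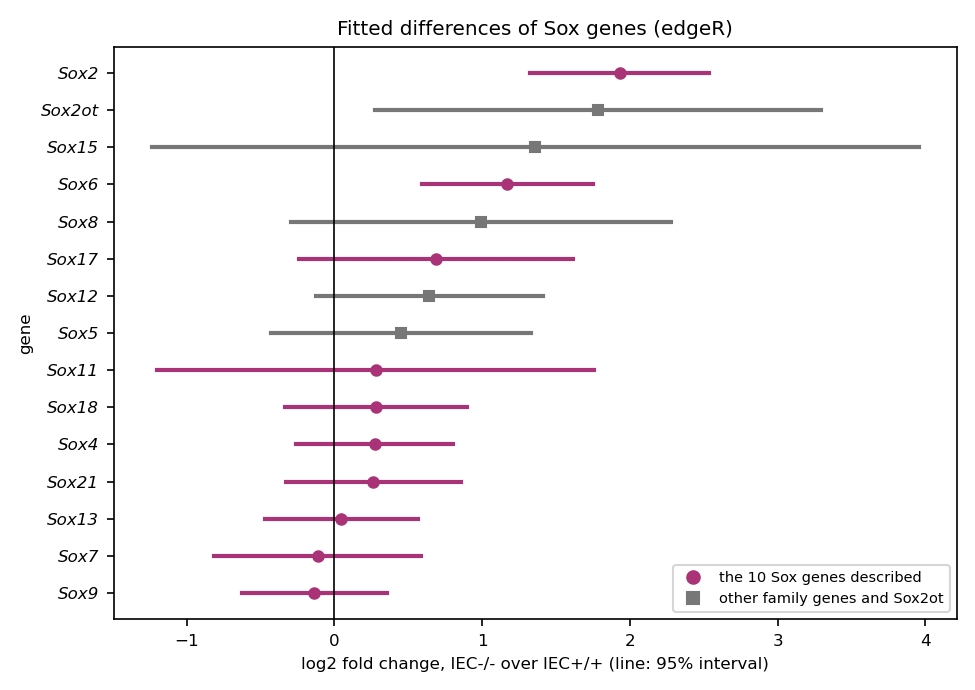
Fitted log2 fold change of IEC-/- over IEC+/+ with its 95% interval for the 10 Sox genes (circles) and for the other family genes tested with Sox2ot (squares), from the fit across all genes. The intervals of Sox2, Sox6 and Sox2ot lie above 0 and those of the other genes include 0.

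The members differed more between the 2 IEC-/- libraries than between the 2 IEC+/+ libraries. The IEC-/- libraries were farther apart for 8 of 10 members in log2 CPM, all but Sox2 and Sox7, against 55.6% of all genes tested. The median distance was 0.58 in IEC-/- and 0.18 in IEC+/+ for the members, and 0.24 and 0.20 for all genes tested. Sox4, Sox6, Sox9, Sox11 and Sox21 were higher in IEC-/- replicate 1 by 1.41-fold to 3.72-fold, and Sox13, Sox17 and Sox18 were higher in replicate 2 by 1.50-fold to 1.99-fold. Sox2 and Sox7 differed by 1.05-fold and 1.03-fold. The cause of these distances was not tested.

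**Figure D5:**
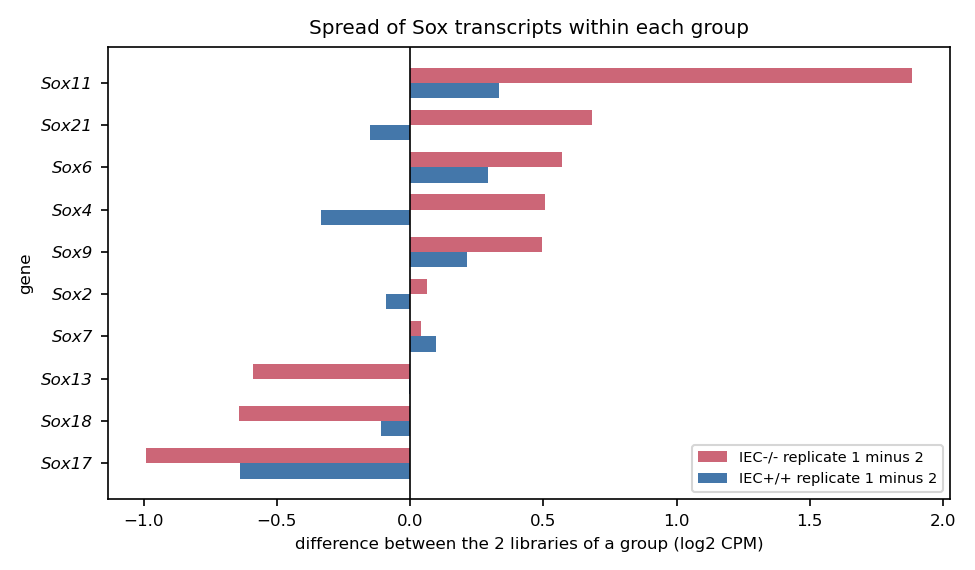
Difference between the 2 libraries of each group in log2 CPM (replicate 1 minus replicate 2) for the 10 Sox genes, with red bars for IEC-/- and blue bars for IEC+/+. Red bars reach 1.88 for Sox11 and -0.99 for Sox17, and are short for Sox2 and Sox7.

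Other tissue markers that differed between the groups stand beside these results. Of 14 epithelial genes 2 were called lower and 0 higher (by unadjusted edgeR p under 0.05, 11 lower and 0 higher). Over all genes tested 0.763% were called lower and 0.120% higher, and 9.12% were lower and 7.50% higher at the unadjusted threshold. The epithelial list had a median log2 fold change of -0.65. Its sums were 13778 and 11908 CPM in the IEC+/+ libraries and 7867 and 7392 in the IEC-/- libraries. The 2 called were Krt20, a keratin gene of differentiated colonocytes, and Lgals4, a galectin gene. Their log2 fold changes were -2.86 and -1.39 (edgeR adjusted p = 0.0461 and 0.0403). Of 12 immune genes tested 1 was called lower, Ly6g, at -2.23 (edgeR adjusted p = 0.0322), and 0 higher. At the unadjusted threshold 3 were higher and 1 lower. The immune list had a median of 0.43 and sums of 655 to 662 CPM in the IEC+/+ libraries and 981 to 1090 in the IEC-/- libraries. Ly6g marks neutrophils. S100a8, which they also make, had 10.8 and 37.7 CPM in the IEC+/+ libraries and 23.8 and 90.2 in the IEC-/- libraries. Of 5 pancreas and liver genes tested 1 was called higher, Alb, at 2.90 (edgeR adjusted p = 0.0403), and 0 lower. At the unadjusted threshold 1 was higher and 0 lower. The list median was 0.27, with sums of 113 to 129 CPM in the IEC+/+ libraries and 161 to 191 in the IEC-/- libraries. Pdx1, the pancreatic and duodenal factor, was below 2 CPM throughout. The part of these markers in the Sox differences was not tested.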

How the data were processed

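Polyadenylated RNA of colon tumour tissue was sequenced as 4 libraries, 2 per group. Each deposited table lists unnormalized counts of reads, as whole numbers, for gene symbols. TopHat, limma, edgeR and mm10 are named, without roles, in the submitters' processing notes. The counting tool, annotation and strand setting are not given in the sources used here. No library was a repeat of another (chi-square per degree of freedom of 35.4 within IEC+/+ and 70.0 within IEC-/-).

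The counts entered edgeR 4.0.16 (R 4.3.3) with its default expression filter, TMM scaling (factors 0.955 to 1.05) and a quasi-likelihood test between the groups without covariates, adjusted over 16637 genes by Benjamini-Hochberg. Standard errors come from the F statistic, and intervals cover 95%. The common biological coefficient of variation was 0.248. Alternatives were RLE scaling, other filters, DESeq2 1.42.0, the exact test, limma-voom (limma 3.58.1), a replicate block and leaving out each library. The test was also run on simulated counts with known changes.

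The members and the 18 lists of pathway and cell type genes were chosen with earlier results of these data known. Named genes are all Sox genes, the called genes of each list or at most 2 with the smallest p where none was called (left unnamed where no Sox result stands beside them), and the nearest profiles to Sox2, Sox9 and Sox17. Other genes are defining markers or overlapping genes, or were picked after their values were seen. Those picked are the squamous genes, Prox1, Il17a, Col2a1, Pdx1, S100a8, Cldn18, Gkn3, Pgc, Anxa10, Tff1, Bmp7 and Foxl1. Some genes of the lists are not reported here by name.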

Additional observations from a re-analysis of the deposited data

How the results depend on the processing

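Of 110 values of the 10 Sox genes under 11 alternatives, 6 changed direction, all on leaving out 1 library, and 97 kept direction and side of the threshold. None of the 6 was called. Over the 4 fits that each leave out a library, log2 fold changes ranged from -0.97 (without IEC-/- replicate 1) to 0.93 for Sox11, from -0.13 (likewise) to 0.56 for Sox21 and from -0.012 (likewise) to 0.50 for Sox4. They ranged from -0.28 (without IEC-/- replicate 2) to 0.30 for Sox13, from -0.083 (likewise) to 0.56 for Sox18 and from -0.41 to 0.088 (likewise) for Sox9. The count of Sox genes called, 1 on all libraries, ranged from 0 to 2 with a library left out. It was 2 by DESeq2 and by the exact test, which added Sox6, and 0 by limma-voom (Sox2 adjusted p = 0.0555; 2 at an unadjusted p under 0.05). With the replicate number as a block it was 0 by edgeR (Sox2 adjusted p = 0.0571; 3 at an unadjusted p under 0.05). The labels do not say that this number marks a shared animal or batch, and same-numbered libraries deviated together with a correlation of 0.16.

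Over all genes the count of 147 became 376 with no filter, 1264 by DESeq2, 882 with edgeR's exact test and 78 with limma-voom. The block gave 211, of which 125 were among the 147. With a library left out the count ranged from 0 to 729: it was 0 without IEC+/+ replicate 1 or 2 (1384 and 1754 at an unadjusted p under 0.05 by edgeR), 729 without IEC-/- replicate 1 and 567 without IEC-/- replicate 2. Leaving out 1 library assumes that the lone library varies like the other group. Of the listed genes that are not Sox genes, 4 were called, against 11 with no filter, 7 with the replicate block, 34 by DESeq2, 21 by the exact test and 0 to 22 with a library left out. The cause of these differences was not tested. With 2 libraries a group, the differences of Sox4, Sox9 and Sox21 had 95% intervals that include 0.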
